A study of Zea mays subsp. mays with 2 samples.

Results

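The loci near the ends of the 10 maize chromosomes were 2920 of the 29674 loci of the deposited table, and 29627 of those lay on chromosomes 1 to 10. A locus was taken as terminal if it ended within the first 5000000 bases of its chromosome, the start end, or began within the last 5000000 bases before the largest listed coordinate, the final end. The choice used position alone and no expression value. The 20 terminal zones covered 100 Mb, 4.86% of the 2058 Mb between the first base and the last listed locus of the chromosomes, and held 9.86% of their loci. There were 1305 terminal loci at the start ends and 1615 at the final ends. The last listed locus stands in for the physical end of a chromosome, and 18 loci on unplaced sequence could not be put at any position.

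The samples were shoots and roots of the maize inbred line B73, on which the maize reference genome is built, separately collected 14 days after germination from plants of a growth chamber. No treatment is named, and the labels do not say how many plants went into a library. Polyadenylated RNA of each organ went into 1 library without strand information, read from both fragment ends over 100 cycles. Values are FPKM, a fragment count per unit of transcript length and of sequencing depth. All 15 loci of the plastid genome, whose transcripts are abundant in green tissue, were higher in the library labelled shoot.

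Maize chromosomes have a large interior rich in retrotransposons, where genes are sparse and recombination is rare. Toward both ends genes lie closer together and most crossovers take place. By convention the coordinates of a maize chromosome begin on its short arm, so the start ends lie on the short arms and the final ends on the long arms. Chromosome 6 carries the nucleolus organizer, the array of ribosomal RNA genes, on its short arm.

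Transcribed loci were packed more densely at the chromosome ends than along the rest of the chromosomes. The terminal zones held 29.2 listed loci per Mb, against 13.6 in the other 1958 Mb, a ratio of 2.14. All 20 ends were denser than the rest of their own chromosome. The rest ran from 11.8 to 14.8 loci per Mb over the 10 chromosomes, while the start ends ran from 13.8 to 49.0 and the final ends from 22.6 to 37.4. The contrast was larger with the chromosome interior than with the adjoining sequence. The next 5 Mb inward of each zone held 26 loci per Mb, and the parts more than 50 Mb from both ends held 10.2. Listed loci covered 15.4% of the terminal sequence and 7.59% of the rest, introns included.

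The outermost Mb stood apart from the 4 Mb inside it. Over the 20 ends, the first Mb held 16.9 loci per Mb, and the following 1 Mb bins held 32.7, 33.2, 31.1 and 32.4. In 15 of the 20 ends the outermost bin was the emptiest of the 5. The outermost Mb held 3 loci at the start end of chromosome 10, 7 at that of chromosome 9 and 35 at the start end of chromosome 5. At a final end the outermost bin contains at least 1 locus by construction, since the last listed locus defines the end. Further inward the density fell slowly, to 23.5 loci per Mb at 9 to 10 Mb and 19.5 at 19 to 20 Mb.

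**Figure D1:**
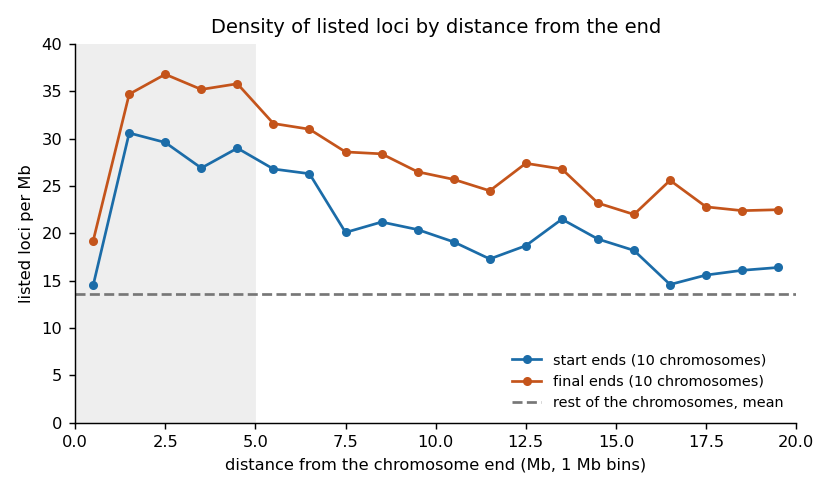
Listed loci per Mb (y axis) against the distance from the chromosome end in Mb (x axis, 1 Mb bins), as points for the 10 start ends together and the 10 final ends together. The dashed line is the mean of the rest of the chromosomes, 13.6 loci per Mb, and the shaded band marks the terminal zone. The first bin lies at 14.5 loci per Mb for start ends and 19.2 for final ends, and the next 4 bins lie between 26.9 and 36.8.

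The gaps between neighbours were shorter at the ends. With loci that share a position counted once, the median gap between neighbouring positions was 13345 bases in the terminal zones and 42201 bases in the rest. Gaps above 100000 bases made up 7.36% of the terminal gaps (191 of 2596) and 24.8% of the others. Neighbours less than 1000 bases apart made up 13.4% of the terminal gaps (348) and 8.07% of the others. The widest gap inside a terminal zone was 439141 bases, at a start end. No position overlapped another, in the terminal zones or in the rest, so where loci share a position the listed span is that of the shared region.

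The final ends were denser than the start ends as a whole, but not on every chromosome. The final ends held 32.3 loci per Mb and the start ends 26.1, a ratio of 1.24. The final end was the denser on 6 chromosomes (4 and 6 to 10), and the start end on chromosomes 1, 2, 3 and 5. The extremes were both start ends. The densest of the 20 was the start end of chromosome 5, with 245 loci or 49.0 per Mb, against 35.8 at its final end. The least dense was the start end of chromosome 9, with 69 loci or 13.8 per Mb, close to the 13.6 of the rest of that chromosome. Next came the start end of chromosome 6, with 74 loci or 14.8 per Mb against 14.4 in the rest. On these chromosomes the final ends held 35.4 and 32.2 loci per Mb, so the ends differed 2.57-fold on chromosome 9 and 2.18-fold on chromosome 6.

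Terminal loci were slightly longer than the rest. The median span, end minus start with introns, was 3923 bases at the ends, with quartiles of 2086 and 6986, and 3653 bases in the rest, with quartiles of 1907 and 6561. The very short and the very long were both less frequent. Spans up to 300 bases made up 1.58% of terminal loci (46) and 2.68% of the rest, and spans over 20000 bases 4.97% (145) and 5.96%. The share of loci that share their position with another was 18.9% (552) at the ends and 17.0% in the rest. The final end had the longer median span on 8 chromosomes and the start end on 2, chromosomes 5 and 10. At the sparse start end of chromosome 9 the median span was 2802 bases, the shortest of the 20 ends, and at the final end of chromosome 1 it was 4791 bases, the longest.

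**Figure D2:**
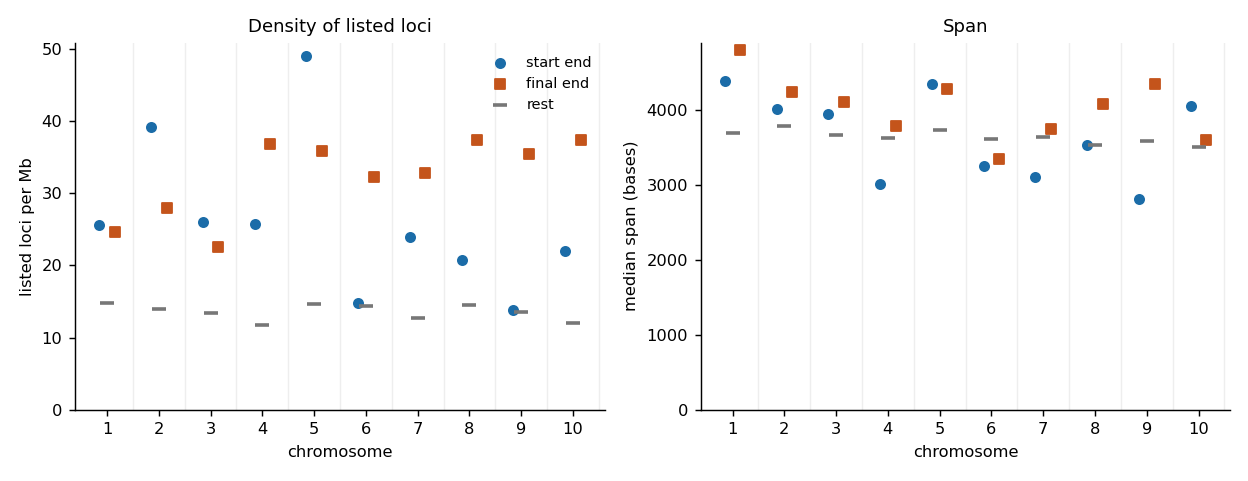
Listed loci per Mb (left) and median span in bases (right) for each of the 10 chromosomes (x axis), with circles for the start end, squares for the final end and bars for the rest of the chromosome. Every circle and square of the left panel lies above the bar of its chromosome, with the start ends of chromosomes 6 and 9 closest to it at 14.8 and 13.8 loci per Mb.

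The level of terminal loci was moderately higher in both libraries. In shoot the median was 11.6 FPKM at the ends, with quartiles of 3.67 and 30.2, and 9.67 FPKM in the rest, with quartiles of 2.96 and 25.8. In root it was 10.2 FPKM, with quartiles of 3.07 and 30.7, against 9.10 FPKM, with quartiles of 2.53 and 26.2. These are ratios of 1.19 in shoot and 1.12 in root, small beside the spread among loci. Against the next 5 Mb inward, where the medians were 11 FPKM in shoot and 10.7 in root, the ratios were 1.05 and 0.954, so the higher root level did not hold against the neighbouring sequence. More than 50 Mb from both ends the medians were 8.92 FPKM in shoot against 8.13 in root. Loci of 100 FPKM or more in either organ made up 9.83% of terminal loci (287) and 8.29% of the rest.

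The difference in level was seen at most spans. Within 5 span classes above 300 bases, the terminal median exceeded that of the rest by 1.15-fold to 1.28-fold in shoot. In root the ratios were 1.09 to 1.26 up to 20000 bases and 1.0 above that. For spans over 1000 and up to 2000 bases, the shoot medians were 6.08 FPKM at the ends and 4.76 FPKM in the rest. The root medians of that class were 6.0 and 4.88 FPKM. The 46 terminal loci of up to 300 bases went the other way in shoot, with a median of 13.0 FPKM against 20.6 FPKM in the rest, while their root median was 18 FPKM against 17.2.

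The start and the final ends differed in level when pooled, but not in the same direction on every chromosome. The final ends had medians of 12.7 FPKM in shoot against 10.8 in root, and the start ends 10.3 and 8.95 FPKM, the latter under the 9.10 FPKM of the rest. The final end exceeded the rest of its chromosome on 9 of 10 chromosomes in shoot and on 8 in root. The start end did so on 6 in shoot and on 5 in root. The start ends varied more among themselves. Their medians ran from 4.65 FPKM on chromosome 9 to 15.6 FPKM on chromosome 6 in shoot, while those of the final ends ran from 9.09 to 16.8 FPKM. The start ends of chromosomes 9 and 6 also held the fewest loci, 69 and 74, against 113 to 187 at the final ends. On chromosome 4 the medians of the final and the start end were 15.8 and 6.16 FPKM in shoot, a ratio of 2.56, and on chromosome 9 they were 11.9 and 4.65 FPKM, also a ratio of 2.56. In root these ratios were 2.34 and 2.13. The start end had the higher median on 4 of 10 chromosomes in each organ, in shoot on chromosomes 2, 3, 6 and 8 and in root on 1, 2, 6 and 8. The shoot ratio of final to start end was lowest on chromosome 2, at 0.752, and 0.777 on chromosome 6. In root it was lowest on chromosome 6, at 0.703.

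**Figure D3:**
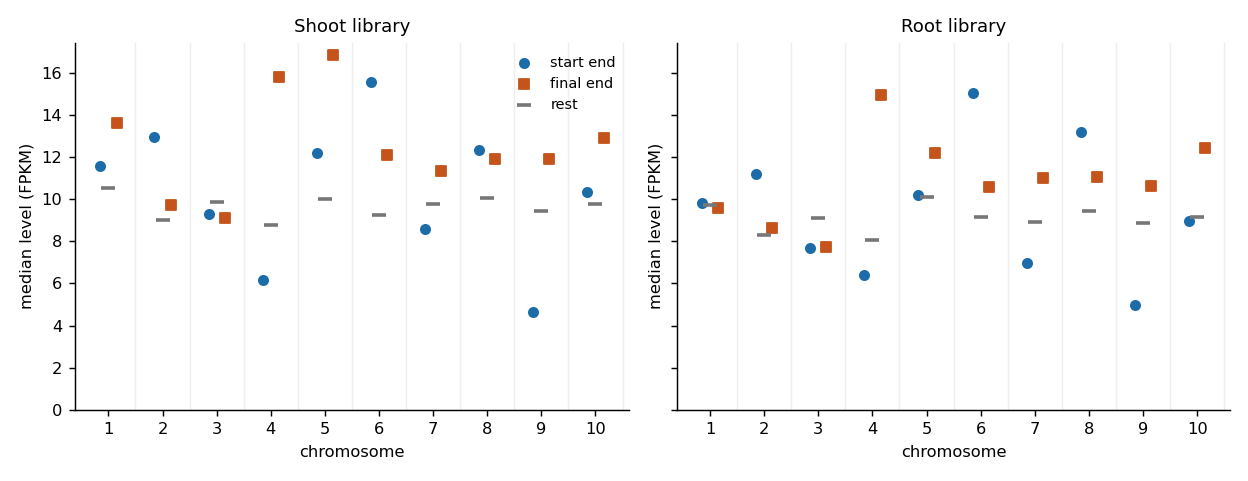
Median level in FPKM (y axis) in the shoot library (left) and the root library (right) for each chromosome (x axis), with circles for the start end, squares for the final end and bars for the rest. The bars lie between 8.06 and 10.5 FPKM in both panels, while the circles reach from 4.65 to 15.6 FPKM in shoot.

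Terminal loci were more often expressed in both organs than the rest, mainly at the final ends. A locus was counted as detected at 1 FPKM, the level above which the higher organ of every listed locus lay. Of the terminal loci, 2517 (86.2%) were detected in both organs, against 83.0% of the rest. At the final ends the share was 88.0%, and it was above the rest of the chromosome on 9 of 10 chromosomes. At the start ends it was 84.0%, and above the rest on 4 of 10. In the next 5 Mb inward it was 85.9%, close to that of the terminal zones. Loci detected in shoot alone were fewer at the ends, 229 or 7.84%, against 10.5% in the rest and 10.3% over the whole table. Loci detected in root alone were 174, or 5.96%, against 6.53% in the rest and 6.48% over the table. At the final ends detection in shoot alone was 6.56%, and it was lower than in the rest of the chromosome on all 10 chromosomes. At the start ends it was 9.43% and lower on 5 of 10. More than 50 Mb from both ends it was 12.4%, and in the next 5 Mb inward 7.38%, lower than in the terminal zones themselves.

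Organ bias of the terminal loci as a whole was close to that of the table. A locus was called higher in an organ at 4-fold on the log2(FPKM + 1) scale, which understates the change of low loci. With 1 library per organ no test between organs was possible, and each call compares these 2 libraries. By this call 219 terminal loci (7.50%) were higher in shoot, against 6.69% of the rest and 6.79% of all loci. Higher in root were 90 terminal loci (3.08%), against 3.57% of the rest and 3.52% of all loci. The log2 ratio of root over shoot had a median of 0.06 both at the ends and in the rest. The small differences from the rest were not robust, in sign for shoot and in size for root. For the share higher in shoot, the difference of terminal loci from the rest was 0.81 percentage points, and -0.31 points with a pseudocount of 0.1. For the share higher in root it was -0.49 points, and -0.06 points without chromosome 5. Over 23 alternative settings the root difference kept its sign, from -1.34 to -0.0097 points.

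The ends of a chromosome differed from each other in their root-biased loci. At the start ends 55 of 1305 loci (4.21%) were higher in root and at the final ends 35 of 1615 (2.17%), around the 3.52% of the table. The share was larger at the start end on 9 of 10 chromosomes. It was lower at the final end than in the rest of the chromosome on 9 of 10 as well, chromosome 9 being the exception. At the start end the share was above that of the rest on 6 of 10 and below it on 4. Counts at single ends were small. The final end of chromosome 1 held 0 root-biased loci of 123, beside 14 higher in shoot. The start ends of chromosomes 9 and 4 had the largest shares, 7 of 69 (10.1%) and 12 of 129 (9.30%), while the rest of the chromosomes ran from 2.54% to 4.88%. The start end of chromosome 5 went against the order, with 1 of 245 (0.41%) beside 2 of 179 (1.12%) at its final end. The difference of final and start ends was -2.05 percentage points, and -1.56 to -2.80 points with 1 chromosome left out.

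The contrast in root bias varied with level and with distance. The table was cut into 4 equal parts by the mean level of both organs. In the part from 10.4 to 27.4 FPKM, 19 of 308 at the start ends (6.17%) and 5 of 431 at the final ends (1.16%) were higher in root, with 3.82% in the rest. Above 27.4 FPKM the shares were 4.63% (17 loci) and 1.70% (8 loci), again with 3.82% in the rest. From 3.24 to 10.4 FPKM the order was opposite, 3.41% (11 loci) at the start ends and 4.15% (16 loci) at the final ends, both under the 5.12% of the rest. Below 3.24 FPKM the shares were 2.61% (8 of 307) and 1.83% (6 of 327), both above the 1.54% of the rest. Along the final ends the share was 1.04% to 2.84% in each of the 5 outer bins of 1 Mb. It was 3.48%, 5.16% and 5.24% in the following 3 bins, then 2.82%, 3.40%, 2.33% and 2.04% out to 12 Mb. The share thus showed no steady rise inward. Along the start ends it was 3.72% to 6.21% in the 5 outer bins, above the final ends in each. Out to 12 Mb it was then 2.61%, 7.60%, 4.48%, 2.36%, 2.45%, 1.57% and 5.78%. There the start ends were above the final ends only at 6 to 7 and 11 to 12 Mb.

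Shoot bias did not separate the ends in the same way. At the start ends 104 loci (7.97%) were higher in shoot and at the final ends 115 (7.12%). The share was larger at the start end on 7 chromosomes and at the final end on 3. It was largest at the start end of chromosome 4, with 17 of 129 (13.2%), and smallest at the final end of chromosome 9, with 8 of 177 (4.52%). The start ends of chromosomes 4 and 9 thus had large shares in both directions, together with the lowest median levels of the 20 ends.

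**Figure D4:**
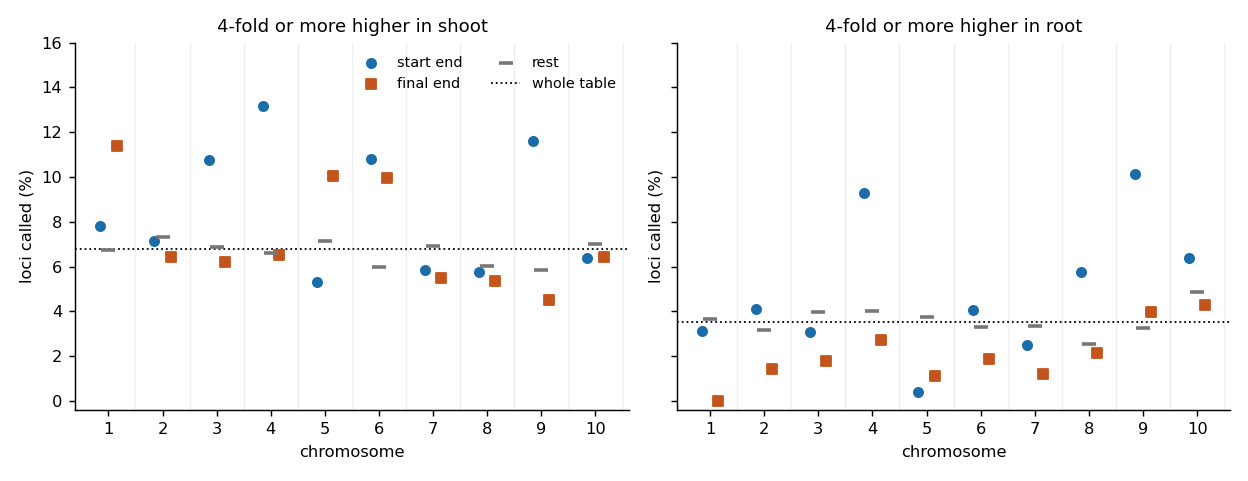
Share of loci in percent (y axis) that were 4-fold or more higher in shoot (left) or in root (right) on the log2(FPKM + 1) scale, for each chromosome (x axis). Circles are start ends, squares final ends, bars the rest and dotted lines the whole table at 6.79% and 3.52%. In the right panel the square lies below the circle on every chromosome but 5.

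The levels of both organs were also more alike at the final ends. Across loci, log2(FPKM + 1) of shoot and root correlated with a Pearson coefficient of 0.78 over the 1615 loci of the final ends and 0.68 over the 1305 of the start ends, with 0.76 in the rest. The coefficient was larger at the final end on 8 of 10 chromosomes. It was lowest, at 0.49, over the 110 loci at the start end of chromosome 10. Loci of an end share the same 2 libraries and are not independent, and these coefficients are a description.

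**Figure D5:**
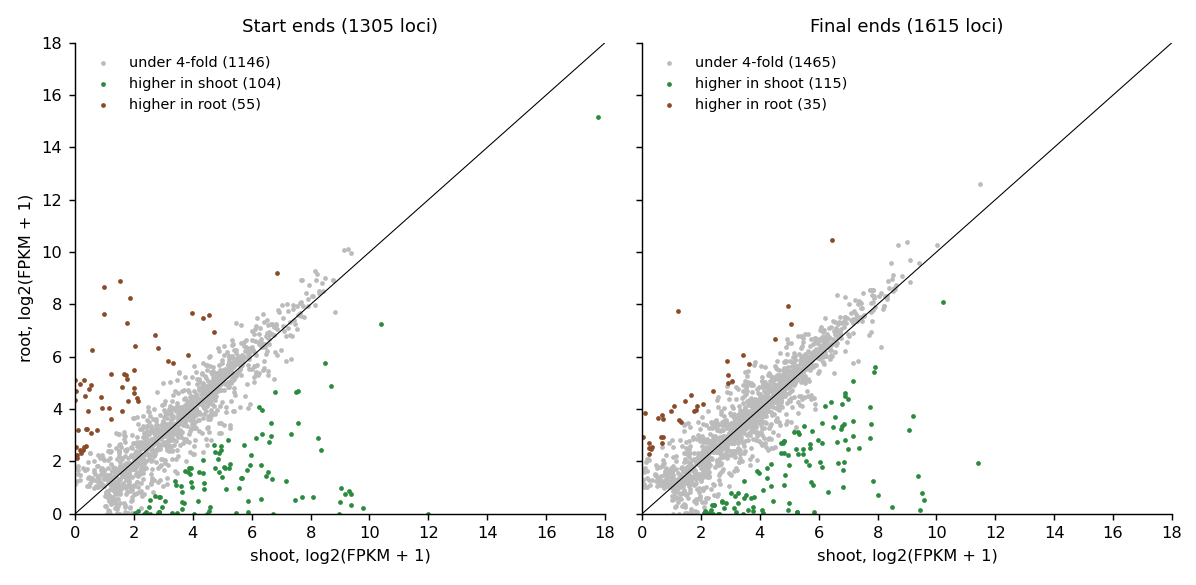
Root level against shoot level of every terminal locus, both as log2(FPKM + 1), for the start ends (left, 1305 loci) and the final ends (right, 1615 loci), with the line of equal level. Green points are 4-fold or more higher in shoot (104 and 115) and brown points 4-fold or more higher in root (55 and 35). Brown points make up 4.21% of the left panel and 2.17% of the right.

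The biased terminal loci spanned a wide range of levels. The 219 higher in shoot had a shoot median of 36.5 FPKM, with quartiles at 12.6 and 108. Their root median was 1.59 FPKM. Of these, 127 were still at 1 FPKM or more in root. The 90 higher in root had a root median of 21.3 FPKM, with quartiles at 10.5 and 55.8. Their shoot median was 1.35 FPKM, and 49 were at 1 FPKM or more in shoot. At the start ends the median root level of such loci was 27.1 FPKM, and at the final ends 14.4 FPKM. At 32-fold, 38 terminal loci (1.30%) were higher in shoot, against 1.04% of the rest, and 8 (0.27%) higher in root, against 0.21%. Of the 8, 7 lay at start ends, 0.54% of the loci there, and 1 at a final end, 0.062%. The 38 higher in shoot also leaned to the start ends, with 22 (1.69%) against 16 (0.99%) at the final ends.

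The shoot-biased loci of the chromosome ends that ranked highest were compact. The 10 with the largest log2(FPKM + 1) ratio, among those above 300 bases, alone at their position and above 0 in both organs, measured 508 to 2751 FPKM in shoot against 0.102 to 2.88 in root. With 1 FPKM added to both organs, a locus of low level cannot reach such ratios, so the high shoot levels follow from the ranking. The 10 spanned 773 to 2258 bases and came from 9 ends, 6 lying at start ends and 4 at final ends. XLOC_027278 on chromosome 6, from 1340367 to 1341144, measured 879 FPKM in shoot against 0.169 in root, about 12.1 root fragments by the fitted worth of a fragment and the whole span. XLOC_027196 at the other end of chromosome 6, from 164900846 to 164902120, measured 2751 FPKM in shoot against 2.88 in root. This is a 955-fold difference without the pseudocount. A chromosome 7 locus from 176215291 to 176216464, 334760 bases from the last listed base, measured 757 FPKM in shoot against 0.440 in root. A chromosome 4 locus from 693596 to 695854 measured 662 FPKM in shoot against 0.669 in root. No gene name is attached to them in the table.

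The strongest root-biased loci lay almost entirely at the start ends. Of the 10 ranked highest in the same way, 9 lay at start ends and 1 at a final end. Start ends held 1305 of the 2920 terminal loci and 55 of the 90 higher in root. The 10 came from 7 ends, with more than 1 locus at the start ends of chromosomes 8 and 10. Some of these were neighbours, in runs given below. Most of the 10 were compact as well, with a median span of 1803 bases against 1223.5 on the shoot side, though 1 spanned 178550. The 10 measured 25 to 479 FPKM in root against 0.0218 to 2.64 in shoot. These root levels lie below the shoot levels of the 10 on the shoot side, but the ranking again limits how low they can be. XLOC_006921 on chromosome 10, from 1087128 to 1088830, measured 402 FPKM in root against 0.977 in shoot. XLOC_033994 on chromosome 8, from 4348581 to 4350767, measured 479 FPKM in root against 1.89 in shoot, a 254-fold difference without the pseudocount. The one at a final end, on chromosome 7 from 172752091 to 172754593, measured 215 FPKM in root against 1.35 in shoot. The closest to an end, on chromosome 7 from 30570 to 33754, measured 29.1 FPKM in root against 0.448 in shoot. The largest fold without the pseudocount, 1146-fold on chromosome 1 from 2306442 to 2308346, compared 25 FPKM in root with 0.0218 FPKM in shoot, about 4.16 shoot fragments, and is imprecise.

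Some biased terminal loci were direct neighbours. Each position was counted once, by its locus of the highest mean level. Of 207 shoot-biased terminal positions, 49 (23.7%) had a shoot-biased neighbour, against 17.7% in the rest. For root these were 24 of 85 (28.2%), against 20.7%. The excess lay at the start ends, with 33 of 97 (34.0%) for shoot and 18 of 53 (34.0%) for root. The final ends were below the rest, with 16 of 110 (14.5%) for shoot and 6 of 32 (18.8%) for root. They formed 20 runs of neighbours higher in shoot, at 13 ends, and 11 runs higher in root, at 8 ends. Most runs lay at start ends, 13 of the 20 and 8 of the 11. The start end of chromosome 4 alone held shoot-biased runs of 4, 3, 3 and 2 positions and root-biased runs of 2, 2 and 2. The excess was thus not spread evenly over the start ends. The share with a biased neighbour also depends on how many positions are biased, which was not adjusted for. At the start ends 97 of 1171 positions were biased to shoot and 53 to root, against 1694 and 897 of 24186 in the rest. The median gap was shorter at the final ends, 12200 bases, than at the start ends, 15010 bases.

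The longest of these runs, picked after their values were seen, held 4 loci each. At the start end of chromosome 8, 4 neighbours from 1745130 to 1891292 measured 78.1, 323, 19.9 and 517 FPKM in shoot against 2.68, 4.36, 1.26 and 0.972 in root. All 4 were thus 15.8-fold or more higher in shoot without the pseudocount. At the start end of chromosome 4, 4 neighbours within 24856 bases, from 3453260 to 3478116, measured 69.9, 13.5, 6.67 and 28.4 FPKM in shoot against 6.39, 2.33, 0.183 and 2.03 in root. A shorter run of 3 compact loci on chromosome 6, from 1340367 to 1373997, was higher by 497-fold to 5200-fold. It took in XLOC_027278, and its levels were 879, 272 and 508 FPKM in shoot and 0.169, 0.547 and 0.361 FPKM in root. On chromosome 5, 3 neighbours of the final end from 214374029 to 214405563 measured 116, 53.5 and 232 FPKM in shoot against 9.69, 8.04 and 42.0 in root, a smaller difference of 5.52-fold to 12-fold. The first of these positions holds a further locus, at 35.3 FPKM in shoot against 34.9 in root, which was not biased.

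On the root side both runs of 3 lay at start ends and took in the loci ranked highest toward root. On chromosome 10 the neighbours from 717205 to 1088830 measured 199, 74.8 and 402 FPKM in root against 0.982, 0.475 and 0.977 in shoot, or 157-fold to 411-fold. The first of them spanned 178550 bases. The middle position holds a further locus, at 30.8 FPKM in root against 13.2 in shoot, which was not called higher in root. On chromosome 8 the neighbours from 4348581 to 4361122 were at 479, 19.3 and 155 FPKM in root. In shoot the first and the last were at 1.89 and 2.36 FPKM and the middle one, of 194 bases, was listed at 0. On chromosome 2, neighbours of nearly equal span, 2773 and 2775 bases, from 3224530 to 3231796, measured 34.2 and 21.5 FPKM in root against 2.37 and 0.277 in shoot.

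The most abundant terminal loci above 300 bases differed between the organs. In shoot the highest value was 4103 FPKM, on chromosome 7 from 4307324 to 4373654. This region of 66330 bases is shared by 3 loci, and the value is that of 1 of them, which is listed at 0 in root. A listed 0 can be a failed estimate, so no fold is given. The next in shoot, after the locus XLOC_027196 named above, was on chromosome 4 from 240105027 to 240109297, at 1186 FPKM in shoot against 270.2 in root. In root the highest was on chromosome 6 from 166083883 to 166084229, a span of 346 bases, at 1410 FPKM in root against 86.1 in shoot. Chromosome 4 held a locus from 237268256 to 237269470 that was among the 5 highest of both organs, at 1037 FPKM in shoot against 1243 in root. The 5 highest of root were otherwise less uneven, with root values up to 2.95-fold above shoot in 4 of them.

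A single short locus dominated the summed FPKM of the terminal zones. Chromosome 6 has at 2452069 to 2452170 a locus of 101 bases, which made up 66.5% of the summed terminal FPKM in shoot and 25.5% in root. Its length is close to that of a read. It is shorter than the offsets of 220 and 230 bases fitted with the worth of a fragment, so its FPKM is not a reliable level. Over loci above 300 bases, the terminal zones held 8.11% of the summed FPKM of the 10 chromosomes in shoot and 6.67% in root. Both shares exceed the 4.86% of the sequence and lie below 9.86%, the share of the loci counted over all spans.

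The outermost listed loci themselves showed no common level. At the start ends the first locus began 6 bases from the first base of chromosome 1 and 300490 bases from that of chromosome 10. The 10 outermost loci of the start ends were at 1.72 to 68.6 FPKM in shoot, with a median of 5.01, and at 0.498 to 114 FPKM in root, with a median of 6.36. The 10 of the final ends were at 1.14 to 107 FPKM in shoot, with a median of 15.6, and at 1.01 to 43.1 FPKM in root, with a median of 5.66. The first locus of chromosome 8, from 17796 to 19262, measured 5.56 FPKM in shoot against 114 in root. The last locus of chromosome 5, from 217612206 to 217680834, measured 107 FPKM in shoot against 8.42 in root. These stood out with 20.5-fold and 12.7-fold differences, in opposite directions.

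The loci nearest to the inner limits of the zones were also read. At the start ends the 10 loci just inside had medians of 6.62 FPKM in shoot against 11 in root, and the 10 just outside 11.4 and 7.90 FPKM. At the final ends the medians were 15.5 and 8.70 FPKM just inside and 9.77 and 8.55 FPKM just outside. Across both kinds of limit, 3 loci crossed it and were counted with the rest.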

How the data were processed

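The deposited values are FPKM for 1 shoot and 1 root library, 1 value per assembled locus, made by the authors with TopHat, Cufflinks and Cuffdiff, per the submitters' processing notes. Their settings, and any scaling between libraries, were not given in the sources used here. The coordinates are those of B73 RefGen_v2, per the file headers, and no genome of that build was used, so no sequence or gene name is given. Every listed locus exceeds 1 FPKM in an organ (smallest higher value 1.00022), so density here is that of expressed loci. Both value columns were matched to samples by name, and 0 were left unused.

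Terminal loci, lists and settings were chosen with earlier results of these data known. Loci named are the outermost at each end, the 5 highest per organ above 300 bases, and the 10 with the largest ratio per direction. At most 2 identifiers per direction are printed, and runs were chosen after their values were seen. Loci are not replicates, and p-values were not computed. The spread between plants is unknown.

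Total counts were not used. Low FPKM values tended to fall near multiples of a worth per fragment. It was fitted as a constant over span less an offset, on loci alone at their position. Closeness to a multiple was scored by a mean cosine, which is 1 for exact multiples. The scores were 0.543 in shoot and 0.530 in root, so fragment numbers are rough. At 1000 effective bases the worth was 0.00884 FPKM in shoot (113 loci, offset 220 bases) and 0.00766 FPKM in root (174 loci, offset 230 bases). There 1 FPKM rests on about 113 fragments in shoot, whose 95% Poisson bounds (exact) are 0.824 and 1.20 FPKM, and 131 in root, bounded by 0.836 and 1.19 FPKM. The intervals cover counting error only, and fragment numbers from whole spans are upper estimates where introns are present.

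Tables were computed in Python 3.11.15 with scipy 1.17.1, pandas 2.3.3 and numpy 2.4.6, and figures drawn with matplotlib 3.10.9. The zone comparison and the fragment worth were tested on simulated data. Other zone widths, pseudocounts, folds, detection levels, scalings and filters, and leaving out each chromosome, were tried.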

Additional observations from a re-analysis of the deposited data

How the results depend on the processing

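Under 25 settings, 3 values changed direction. They were the median root level over the rest, 0.954 against the next 5000000 bases inward, and the share higher in shoot less that of the rest, -0.31 points with a pseudocount of 0.1 and -0.51 with a 2-fold threshold. Against the next 5000000 bases inward the density ratio was 1.12, the shoot level ratio 1.05 and the difference in detection in both organs 0.30 points. With zones of 2000000 bases the density ratio was 1.74, the start end was denser on 2 chromosomes in place of 4, the root share of final less start ends was -2.83 points, and the shoot share less that of the rest was 0.018 points. With 10000000 bases the root share of final less start ends was -1.09 points and the root share less that of the rest -0.0097 points, so neither difference from the rest can be called stable. These widths gave 67 and 385 loci higher in shoot and 33 and 194 higher in root. A pseudocount of 5 gave 124 and 38, an 8-fold threshold 120 and 36, and a 2-fold threshold 423 and 312. A pseudocount of 0.1 gave 151 higher in root. The root share less that of the rest was -1.34 points with that pseudocount and -1.31 points at 2-fold. Detection in both organs was 1.78 points above the rest at a mean of 1 FPKM or more and 0.79 points with detection at 0.1 FPKM. Without chromosome 5 the density ratio was 2.05, that of final to start ends 1.35 and their root share difference -2.80 points. Settings for final against start ends were added after seeing the data. No paired analysis was possible because each organ has 1 library, and for the same reason no library could be left out. The cause of these changes was not tested.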
